A study of Homo sapiens with 6 samples.

Results

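The 10 genes described here encode enzymes and regulators of polyamine synthesis and breakdown: ODC1, AMD1, SRM, SMS, OAZ1, OAZ2, AZIN1, SAT1, PAOX and SMOX. They were listed by symbol, in a choice made with earlier results of these data known. All 10 were found among the 60564 gene rows of the deposited count table. The cells were A2780, an established line from a human ovarian cancer, with mRNA sequenced in 6 libraries: 3 carry the label GPT2si and the other 3 GPT2sinc. The labels give the group names as genotypes of the line and do not spell out si and sinc, give no agent, dose or time, and do not say whether replicate libraries were grown separately. Both groups are the same line, so all comparisons are within 1 genetic background. GPT2 is the mitochondrial alanine aminotransferase, which exchanges amino groups between alanine and glutamate, and the series asks what its deficiency does to gene expression.

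Polyamines are small positively charged molecules that bind nucleic acids and are needed for growth and translation. Ornithine is decarboxylated to putrescine by ODC1, and the aminopropyl groups that turn putrescine into spermidine (by SRM) and spermidine into spermine (by SMS) come from S-adenosylmethionine after its decarboxylation by AMD1. Antizymes, made from OAZ1 and OAZ2, bind ODC1 and send it to the proteasome, and the antizyme inhibitor AZIN1 binds antizyme in turn. SAT1 acetylates spermidine and spermine for export or for oxidation by PAOX, while SMOX oxidises spermine directly. Much of this control acts on translation and protein turnover, which counts of mRNA do not measure.

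Depth was 43351984 to 45508530 counts per GPT2sinc library and 41931162 to 50882329 per GPT2si library. GPT2, the gene the labels name, was at 236, 229.9 and 219 CPM (counts scaled to library size, with TMM factors) in GPT2sinc 1 to 3 and at 93.8, 94.3 and 96.9 CPM in GPT2si 1 to 3, which is 41.7% of the GPT2sinc mean. Of 8 markers of ovarian carcinoma and epithelium, 3 (KRT8, KRT18 and EPCAM) reached a mean of 1 CPM, and WT1 had 0 counts in all libraries, which allows up to 3 counts or 0.0597 to 0.0770 CPM. The summed level of these markers was 58.0 to 60.4 CPM in GPT2sinc and 64.6 to 80.6 CPM in GPT2si. All 4 fibroblast markers reached 1 CPM, with sums of 360.0 to 390.0 CPM in GPT2sinc and 393 to 407 CPM in GPT2si, while sums of 4 blood cell markers and 3 endothelial markers stayed under 3 CPM. The library GPT2si 2 stood apart from the other GPT2si libraries along GC content: its centred median log2 level was −0.30 in the lowest and 0.19 in the highest of 4 equal classes of tested genes by transcript GC. The corresponding values were 0.09 and −0.08 in GPT2si 1 and 0.20 and −0.10 in GPT2si 3. In GPT2sinc 1 to 3 they were 0.11, −0.04 and −0.07 in the lowest class and −0.05, 0.01 and 0.04 in the highest. Levels were centred on the mean of each group, so values of libraries in a group depend on each other.

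None of the 10 polyamine genes passed the test between the groups. ODC1 and SRM lay higher and SMS lower in every GPT2si library, and the groups overlapped for the other 7 genes. All 10 passed the filter on low counts. With the quasi-likelihood test of edgeR and Benjamini-Hochberg adjustment over 17006 genes, 0 of 10 were called at an adjusted p under 0.05, where 1.42% of all tested genes were. At an unadjusted p under 0.05, SRM and ODC1 were higher and SMS was lower, which is 3 of 10 where 19.6% of all genes reached that level. The GPT2si and GPT2sinc libraries did not overlap for these 3 genes, and this kind of separation was seen for 28.2% of all tested genes, so the share of separated members, 3 of 10, is near the background. Of the 10 log2 fold changes 7 were positive and 3 negative, with a median of 0.10, against −0.01 over all tested genes. Other tools run on the same counts called 2 members higher and 0 lower (DESeq2 Wald test, where 7.77% of all genes passed) and 0 (limma-voom).

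**Figure D1:**
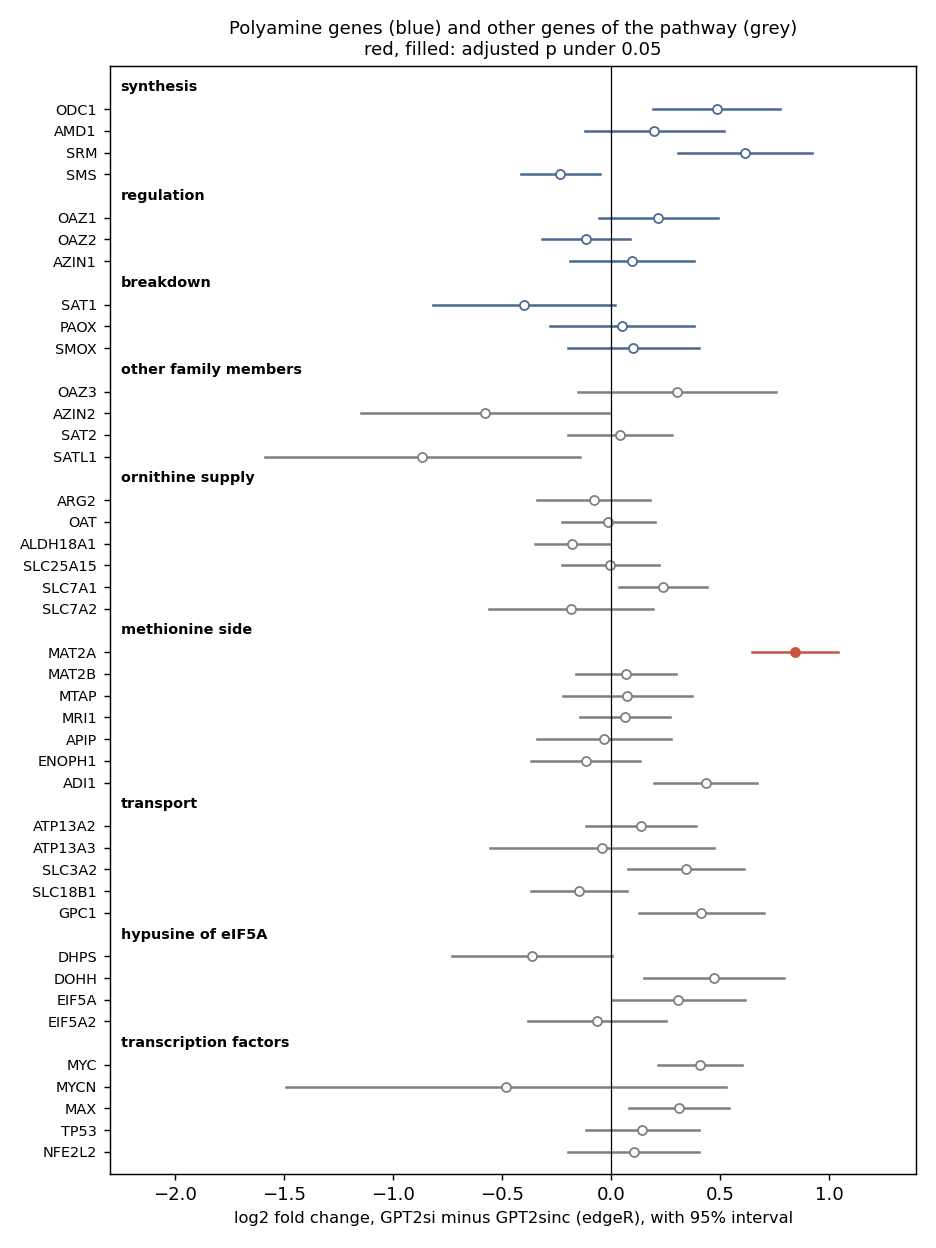
Log2 fold change (GPT2si minus GPT2sinc, horizontal axis) with its 95% interval from edgeR for the 10 polyamine genes (blue) and the 31 tested genes of the wider pathway (grey), grouped by role. MAT2A, at 0.84, is the one gene drawn filled and red because its adjusted p was under 0.05, and the intervals of ODC1 and SRM lie above 0 and that of SMS below 0.

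Ornithine decarboxylase, the enzyme that commits ornithine to the pathway, had more transcripts in every GPT2si library. ODC1 (ENSG00000115758; chromosome 2, 10439968 to 10448504 on the minus strand of GRCh38 in GENCODE 29; protein coding) was at 119, 155 and 157 CPM in GPT2sinc 1 to 3 and at 209, 221 and 173 CPM in GPT2si 1 to 3. The lowest GPT2si library, GPT2si 3, lay above the highest GPT2sinc library, and GPT2sinc 1 was the lowest of all 6. The mean level was 144 ± 21.9 against 201 ± 25.1 CPM (SD, n = 3 each). The log2 fold change was 0.48 (SE 0.13; 95% interval 0.19 to 0.78; edgeR adjusted p = 0.0999) and did not pass.

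Spermidine synthase showed the largest difference of the 10 genes. SRM (ENSG00000116649; chromosome 1, 11054584 to 11060024 on the minus strand; protein coding) was at 87.8, 99.6 and 105 CPM in GPT2sinc 1 to 3 and at 139, 183 and 126 CPM in GPT2si 1 to 3. The groups did not overlap, and GPT2si 2 was well above the other GPT2si libraries. The mean went from 97.5 ± 8.78 to 149 ± 29.5 CPM, a 1.53-fold difference (log2 0.61, SE 0.14; 95% interval 0.31 to 0.92; edgeR adjusted p = 0.0622). SRM ranked 354 and ODC1 751 by p among the 17006 genes. SRM passed without GPT2si 2, where the difference was smaller but the libraries lay closer together (log2 0.43, edgeR adjusted p = 0.0273; 4.77% of all genes passed), and without GPT2si 3 (0.72, adjusted p = 0.0488; 0.626% passed), and it did not pass when any of the other 4 libraries was left out (adjusted p from 0.151 to 0.293).

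ODC1 and SRM are textbook targets of MYC, which with MAX binds the E-box CACGTG, and their start regions hold that motif. RefSeq promoter windows of 300 bases (250 before to 50 after a start, GRCh38.p14) were found for 7 of the 10 genes; AZIN1, PAOX and SMOX were not matched. The palindrome CACGTG, which reads the same on both strands, occurred in windows of 2 of these 7 genes, ODC1 and SRM, and in 12.3% of the 11739 tested genes with a window. No match in the windows of AMD1, SMS, OAZ1, OAZ2 and SAT1 says only that these letters are not there. The sites are shown because the 2 genes that hold them have the 2 largest positive differences among the members. Neither difference passed in the edgeR fit of all 6 libraries with group as the only term and no offsets. Both passed in some alternative fits, and the sites were picked for display with these differences known. Each is written 5′ to 3′ on the strand of the gene, with the motif in capitals.
SRM, chr1:11060203-11060226, motif starting at base −199 from the start: gccgggcccCACGTGgcccctgga
ODC1, chr2:10448027-10448050, motif starting at base −29 from the inner of the 2 listed starts: ggccccgggCACGTGtgcggcgcg
ODC1, chr2:10447993-10448016, motif starting at base 6 counted from the same start: ctgcggagaCACGTGgtcgccgag
The outer ODC1 window had 0 matches. These matches describe sequence only, since binding was not measured, and whether MYC had a part in the differences was not tested.

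MYC itself was at 73.8, 81.5 and 84.5 CPM in GPT2sinc 1 to 3 and at 104, 111 and 104 CPM in GPT2si 1 to 3. The GPT2si libraries were all higher and close to each other. The log2 fold change of 0.41 (SE 0.09; edgeR adjusted p = 0.0586) did not pass in the fit of all 6 libraries with group as the only term and no offsets. MYC passed with the DESeq2 Wald test (0.41, adjusted p = 0.00260), with GC and length offsets in the edgeR fit (0.39, adjusted p = 0.00560) and without GPT2si 2 (0.36, adjusted p = 0.0260), and in none of the other 11 alternatives. Its partner MAX lay at 0.31 (SE 0.10; adjusted p = 0.148) on the same scale.

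The 2 other synthesis genes differed from this pattern. AMD1, whose product makes decarboxylated S-adenosylmethionine, the aminopropyl donor for both later steps, (chromosome 6, 110874770 to 110895713 on the plus strand) was at 21.5, 20.1 and 23.4 CPM in GPT2sinc 1 to 3 and at 26.8, 19.8 and 27.9 CPM in GPT2si 1 to 3. GPT2si 1 and 3 were above all GPT2sinc libraries and GPT2si 2 was the lowest of the 6, so that the groups overlapped (log2 0.20, SE 0.14; 95% interval −0.12 to 0.52; edgeR adjusted p = 0.468). SMS (ENSG00000102172; chromosome X, 21940573 to 21994835 on the plus strand; protein coding), which turns spermidine into spermine, was at 86.0, 89.2 and 86.9 CPM in GPT2sinc 1 to 3 and at 73.9, 71.3 and 77.8 CPM in GPT2si 1 to 3. All GPT2si libraries were lower and both groups were tight, at 87.4 ± 1.64 against 74.3 ± 3.30 CPM. The log2 fold change of −0.23 (SE 0.08; 95% interval −0.42 to −0.05; edgeR adjusted p = 0.163) did not pass. The aminopropyl transferases SRM and SMS thus had differences of opposite sign, with 95% intervals that did not overlap. These intervals are not adjusted for the number of genes tested, and neither gene passed in this fit.

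**Figure D2:**
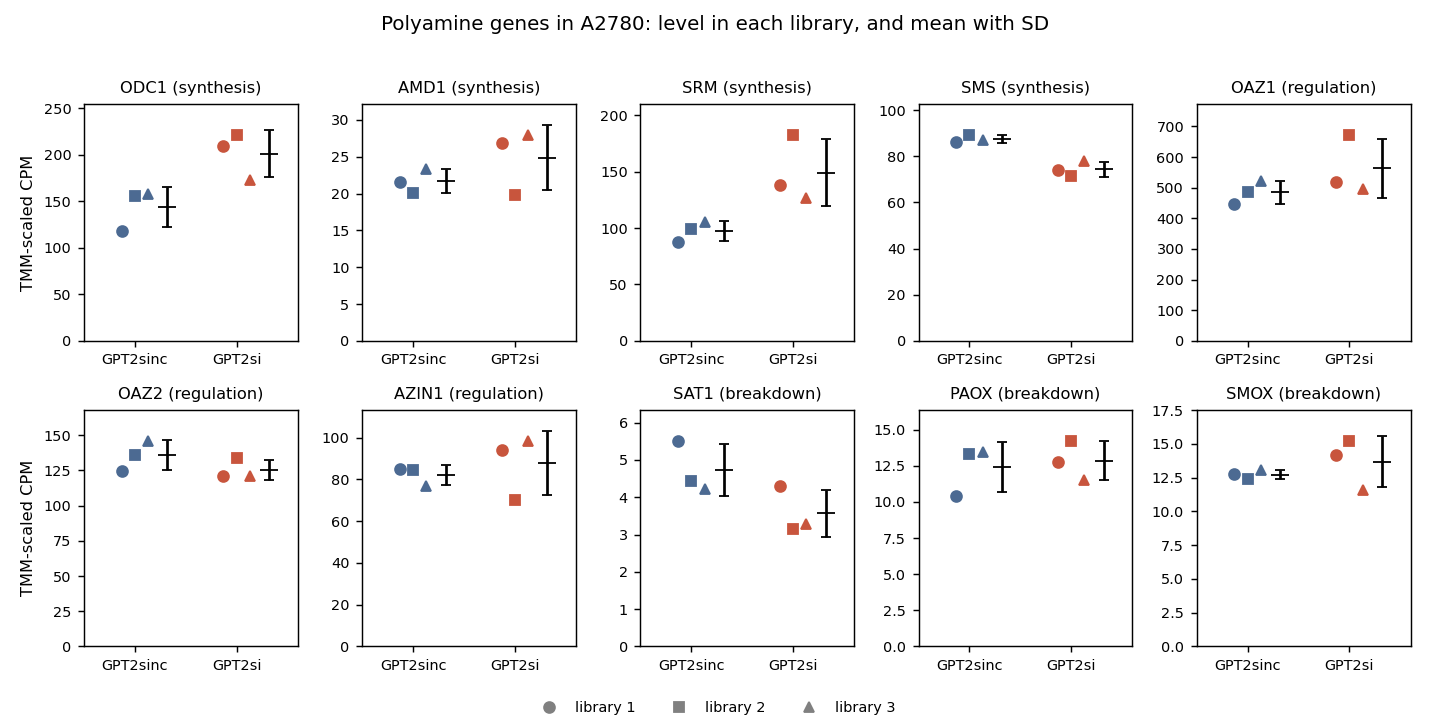
TMM-scaled CPM of each polyamine gene (vertical axis from 0, scaled per gene) in the GPT2sinc (blue) and GPT2si (red) libraries 1 to 3, with mean and SD in black. ODC1 and SRM lie higher and SMS lower in all GPT2si libraries, and for the other 7 genes the groups overlap.

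Within the polyamine genes, the rank of GPT2si 2 among the 3 GPT2si libraries followed transcript GC content. In the 4 members with the lowest GC in their longest coding transcript, AMD1, AZIN1 (42.3%), SAT1 (43.8%) and SMS (46.5%), GPT2si 2 was the lowest of the GPT2si libraries. In the 6 members from ODC1 (51.2%) to SRM (63.7%) it was the highest. Over all tested genes GPT2si 2 was the highest of its group in 67.8% of genes above the median GC of 49.7% and the lowest in 70.5% of those at or below it, so the members follow a trend of the whole library. Offsets that remove GC and length trends from each library brought the deviation of GPT2si 2 from its group from −0.31 to 0.01 for AMD1 and from 0.31 to 0.11 for SRM on the log2 scale. The change was smaller for OAZ1, from 0.27 to 0.17, and for ODC1, from 0.15 to 0.11. In each of the other members the deviation of GPT2si 2 also became smaller in size.

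With these offsets in the edgeR fit, 3 members were higher and 1 lower at an adjusted p under 0.05, where 13.5% of all genes passed. SRM was at 0.59 (SE 0.07; adjusted p = 0.00360), ODC1 at 0.48 (SE 0.11; adjusted p = 0.0202), AMD1 at 0.36 (SE 0.10; adjusted p = 0.0355) and SMS at −0.20 (SE 0.06; adjusted p = 0.0484). The sizes for ODC1, SRM and SMS moved by at most 0.04 on the log2 scale from the fit without offsets and their errors became smaller, while the value of AMD1 was 0.20 without offsets. AZIN1 was at 0.19 (SE 0.06; adjusted p = 0.0566) and did not pass.

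**Figure D3:**
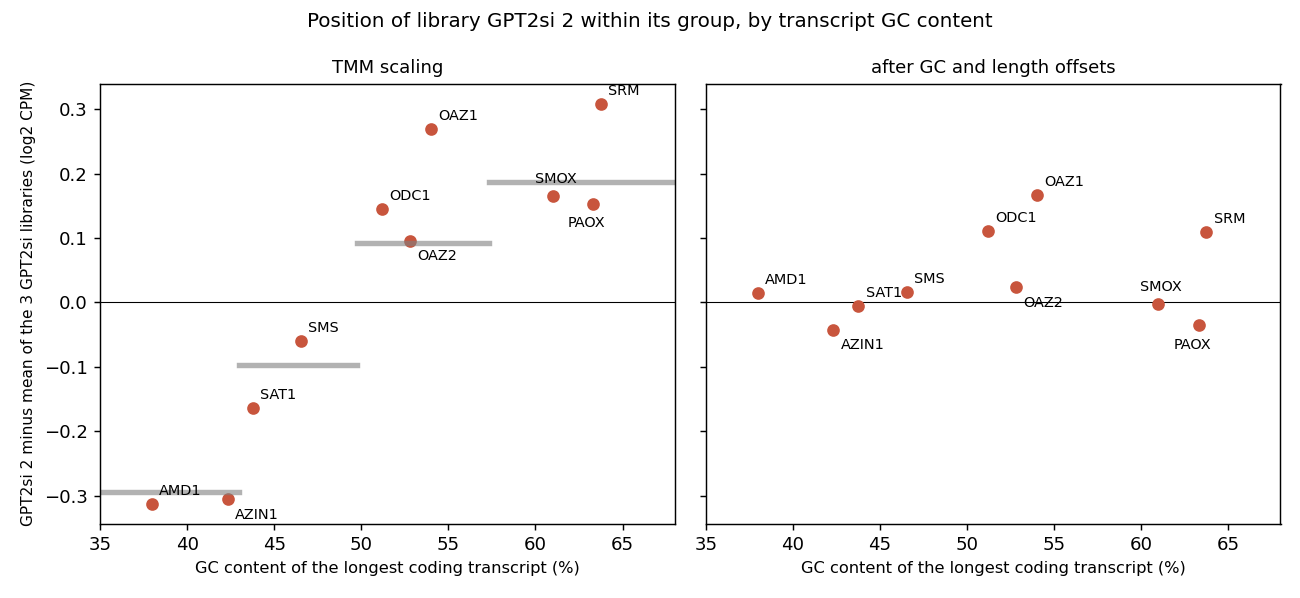
Deviation of GPT2si 2 from the mean of the 3 GPT2si libraries (log2 CPM, vertical axis) against the GC content of the longest coding transcript (percent, horizontal axis) for the 10 polyamine genes, with TMM scaling (left) and after GC and length offsets (right). Grey bars on the left are medians over all tested genes in 4 classes of GC; on the left members run from −0.31 for AMD1 to 0.31 for SRM, and on the right the spread is smaller.

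Antizyme mRNA was abundant in both groups and did not differ past the test. OAZ1 (chromosome 19, 2269509 to 2273490 on the plus strand) was at 446, 485 and 522 CPM in GPT2sinc 1 to 3 and at 520, 672 and 496 CPM in GPT2si 1 to 3. GPT2si 2 was far above the rest, and GPT2si 3 lay below GPT2sinc 3 (log2 0.22, SE 0.12; 95% interval −0.06 to 0.49; edgeR adjusted p = 0.356). Without GPT2si 2 the value was 0.06. OAZ2, the second antizyme gene (chromosome 15, 64687573 to 64703281 on the minus strand), was at 125, 136 and 146 CPM in GPT2sinc and 121, 134 and 121 CPM in GPT2si (−0.11, SE 0.09; 95% interval −0.32 to 0.09; adjusted p = 0.507), with overlapping groups.

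Antizyme protein is made only when ribosomes shift frame at a stop codon inside the coding region, a step that polyamines promote, so antizyme output need not follow its mRNA. The shift site is shown for both genes because it sets them apart from the other members, whose reading frames are read without a shift. Each is a window of 30 bases from GENCODE 29 transcripts, 5′ to 3′, with the last codon of the first frame, the stop codon and the next base in capitals.
OAZ1: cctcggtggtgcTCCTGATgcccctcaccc
OAZ2: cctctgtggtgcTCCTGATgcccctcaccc
The windows are identical at 29 of 30 bases. In 2 of 3 coding OAZ1 transcripts and 3 of 4 coding OAZ2 transcripts GENCODE leaves out the T of the stop codon, so that the annotated protein reads through.

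AZIN1, which resembles ODC1 but lacks its activity and ties up antizyme, was at 84.8, 84.7 and 76.7 CPM in GPT2sinc 1 to 3 and at 94.3, 70.2 and 98.5 CPM in GPT2si 1 to 3. GPT2si 1 and 3 were the highest and GPT2si 2 the lowest of the 6 libraries. The log2 fold change was 0.10 (SE 0.13; 95% interval −0.19 to 0.38; edgeR adjusted p = 0.712). The antisense gene MAILR overlaps AZIN1 and held 198 counts over the 6 libraries against 23129 for AZIN1. Without a known strand setting, reads of this pair cannot be told apart.

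None of the 3 breakdown genes differed past the test, where 1.42% of all tested genes did. SAT1, the inducible acetyltransferase that starts polyamine breakdown (chromosome X, 23783173 to 23786226 on the plus strand), had 253, 206 and 184 counts in GPT2sinc 1 to 3 and 216, 123 and 149 counts in GPT2si 1 to 3. Scaled to CPM these were 5.51, 4.43 and 4.23 against 4.30, 3.16 and 3.27, and the groups overlapped only because GPT2si 1 lay just above GPT2sinc 3. The log2 fold change of −0.40 was the largest negative one of the 10 (SE 0.19; 95% interval −0.82 to 0.02; edgeR adjusted p = 0.273). SAT1 transcripts also exist in a form with an extra exon that is degraded, and counts per gene do not separate the forms.

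Neither amine oxidase passed the test, and the libraries of the groups overlapped for both. SMOX was at 12.7 ± 0.328 CPM in GPT2sinc and 13.7 ± 1.89 CPM in GPT2si, with GPT2si 3 the lowest and GPT2si 2 the highest of all libraries (log2 0.10, SE 0.13; 95% interval −0.20 to 0.40). PAOX, the peroxisomal oxidase of acetylated polyamines, was at 12.4 ± 1.74 against 12.8 ± 1.36 CPM (0.05, SE 0.15; 95% interval −0.28 to 0.38), and its sign was negative without GPT2sinc 1 or without GPT2si 2. The protein-coding gene ENSG00000254536 overlaps PAOX on the same strand and held 1100 counts against 3405 for PAOX, so the PAOX counts are uncertain. The edgeR adjusted p was 0.710 for SMOX and 0.879 for PAOX.

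Processed copies of the members took almost no counts. AMD1P3 had 8 counts in all 6 libraries together, and AMD1P1, AMD1P2, AMD1P4, SMSP1, OAZ1P1, SRMP1, SRMP2 and SRMP3 had 0. The divergent transcript ODC1-DT, which starts beside ODC1 on the other strand, had between 119 and 207 counts per library.

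Per kilobase of the longest coding transcript in GENCODE 29, antizyme and spermidine synthase led the members and the acetyltransferase came last. In GPT2sinc the level was 422 ± 33.5 CPM per kilobase for OAZ1, 77.0 ± 6.94 for SRM, 70.1 ± 5.49 for OAZ2, 54.2 ± 8.25 for ODC1 and 47.6 ± 0.892 for SMS (SD, n = 3 each). AZIN1 followed at 17.4 ± 0.980, then PAOX at 6.68 ± 0.935, AMD1 at 6.31 ± 0.477, SMOX at 5.48 ± 0.141 and SAT1 at 4.44 ± 0.649. The ranges over libraries of SRM and OAZ2, of ODC1 and SMS, of PAOX and AMD1, and of PAOX and SMOX overlapped. Within each GPT2sinc library SRM lay above OAZ2 and PAOX above SMOX. The order of ODC1 and SMS and that of PAOX and AMD1 varied between libraries and is not resolved. With the median length of coding transcripts in place of the longest, OAZ1, SRM and OAZ2 stayed at ranks 1 to 3 and SAT1 at rank 10, while AZIN1 moved from rank 6 to rank 4.

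Ratios of members within a library, on the CPM scale and read only across libraries, set ODC1 beside SAT1 and OAZ1, and AZIN1 beside OAZ1. The ratio of ODC1 to SAT1 was 21.5, 35.1 and 37.2 in GPT2sinc 1 to 3 and 48.7, 70.0 and 52.9 in GPT2si 1 to 3, so every GPT2si library was above every GPT2sinc library. The ratio of ODC1 to OAZ1 was 0.266, 0.320 and 0.301 in GPT2sinc and 0.402, 0.329 and 0.348 in GPT2si, again without overlap, but GPT2si 2 exceeded GPT2sinc 2 by little. The ratio of AZIN1 to OAZ1 was 0.190, 0.175 and 0.147 in GPT2sinc and 0.181, 0.104 and 0.199 in GPT2si, and the groups overlapped. ODC1 and OAZ1 lie closer in GC content than ODC1 and SAT1 or AZIN1 and OAZ1, and the part of GC in these ratios was not tested. How often ratios of other gene pairs do not overlap between the groups was not computed.

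Around the core pathway, MAT2A alone passed the test. Of 34 further genes listed by role, 31 were tested, 1 was called higher and 0 lower where 1.42% of all tested genes were called, and the median log2 fold change was 0.06. Among these 31 genes, 13 did not overlap between the groups (9 higher, 4 lower in GPT2si), which is 41.9%, beside 28.2% of all tested genes (14.9% higher, 13.2% lower). ARG1 and AGMAT had 0 counts in all libraries and SLC25A2 had 3 counts in GPT2sinc 1 and 0 elsewhere, so these were not tested.

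On the methionine side, MAT2A, which makes the S-adenosylmethionine that AMD1 uses, was at 89.0, 102 and 101 CPM in GPT2sinc 1 to 3 and at 174, 184 and 166 CPM in GPT2si 1 to 3. It rose by 0.84 on the log2 scale (SE 0.09; edgeR adjusted p = 0.0111), and leaving out any GPT2sinc library or GPT2si 1 made it miss the threshold (adjusted p from 0.0524 to 0.0813). MTAP, which recovers the methylthioadenosine left by SRM and SMS, is deleted in many tumour lines but was present here at 16.7 ± 1.02 and 17.6 ± 2.42 CPM (0.07, SE 0.13; adjusted p = 0.788). ADI1, a later enzyme of that salvage route, was at 124 ± 13.4 against 167 ± 14.9 CPM (0.43, SE 0.10; adjusted p = 0.0777) and did not pass. The other 4 genes of the methionine side had overlapping groups.

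In ornithine supply 0 of 6 tested genes passed, where 1.42% of all tested genes did. The arginine transporter SLC7A1 was at 269 ± 14.1 against 317 ± 28.3 CPM (0.24, SE 0.09; edgeR adjusted p = 0.195). ALDH18A1, which makes the precursor of proline and ornithine from glutamate, was at 321 ± 9.91 against 284 ± 13.8 CPM (−0.18, SE 0.08; adjusted p = 0.245). ARG2 and OAT, which release ornithine from arginine and connect it with glutamate, were at −0.08 and −0.01 on the log2 scale with overlapping groups.

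Of 5 transport genes 0 passed, where 1.42% of all tested genes did. SLC3A2, the heavy chain of amino acid exchangers that has also been tied to polyamine export, was at 231 ± 16.7 against 293 ± 48.6 CPM (0.34, SE 0.12; edgeR adjusted p = 0.164), with GPT2si 2 highest at 348 CPM. Its value was 0.19 without GPT2si 2 (adjusted p = 0.162), and it passed with GC and length offsets (0.31, adjusted p = 0.0205). The glypican GPC1, a heparan sulfate carrier implicated in polyamine uptake, was at 107 ± 8.54 against 142 ± 26.1 CPM (0.41, SE 0.13; adjusted p = 0.131). ATP13A3, a polyamine-transporting ATPase, was at 25.8 ± 5.35 against 25.1 ± 8.05 CPM, and its value of −0.04 (SE 0.23) was positive, at 0.14 and 0.16, without GPT2sinc 1 or GPT2si 2.

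Spermidine also donates the aminobutyl group of hypusine, a modified lysine of the translation factor eIF5A. Of 4 genes of that branch 0 passed, where 1.42% of all tested genes did. EIF5A was the most abundant gene of all those listed, at 730.1 ± 85.2 against 904 ± 167 CPM (0.31, SE 0.14; edgeR adjusted p = 0.251), and the value was 0.13 without GPT2si 2. DHPS, which performs the transfer, was at 72.5, 72.9 and 81.6 CPM in GPT2sinc 1 to 3 and at 64.2, 69.9 and 42.5 CPM in GPT2si 1 to 3 (−0.36, SE 0.16; adjusted p = 0.262). All GPT2si libraries were lower, and GPT2si 3 was far below the rest; without it the value was −0.17. DOHH, which completes hypusine, was at 11.1 ± 0.473 against 15.4 ± 2.51 CPM (0.47, SE 0.14; adjusted p = 0.125), higher in all GPT2si libraries.

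Other relatives of the members were tested as well and 0 of 4 passed, where 1.42% of all tested genes did. SAT2, which is related to SAT1 in sequence, was at 82.7 ± 3.91 against 85.0 ± 11.1 CPM (0.04, SE 0.11; edgeR adjusted p = 0.863). AZIN2, the second antizyme inhibitor, was at 4.05 ± 1.24 against 2.70 ± 0.659 CPM (−0.58, SE 0.25; adjusted p = 0.246), and GPT2sinc 1, at 5.47 CPM, was far above the other 5 libraries. SATL1, a SAT1-like gene, was at 1.22, 1.14 and 1.31 CPM in GPT2sinc 1 to 3 and at 0.994, 0.539 and 0.461 CPM in GPT2si 1 to 3. All GPT2si libraries were lower, and the log2 fold change of −0.87 (SE 0.32; unadjusted p = 0.0238; adjusted p = 0.188) did not pass.

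Calls of ODC1, SRM, AMD1 and SMS depended on the fit, and the other 6 members were not called in any of the 14 alternatives. Other scaling factors called 0 of 10 members, where 1.02% (DESeq2 size factors) and 1.42% (upper-quartile factors) of all genes passed. So did fits with no low-count filter (0.154% of genes passed) and with at least 1 CPM in 3 libraries (1.79%), and limma-voom (1.02%). The DESeq2 Wald test called ODC1 (adjusted p = 0.0137) and SRM (adjusted p = 0.00147), and a fit with the replicate number as a block called the same pair (3.28% of genes passed). Leaving out GPT2sinc 1, 2 or 3 left 0.0231%, 0.00577% and 0.0287% of genes past the test, and leaving out GPT2si 1 left 0.0115%, with 0 members called in each. ODC1 was not called in any of the 6 fits without a library, with adjusted p from 0.0603 to 0.362.

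**Figure D4:**
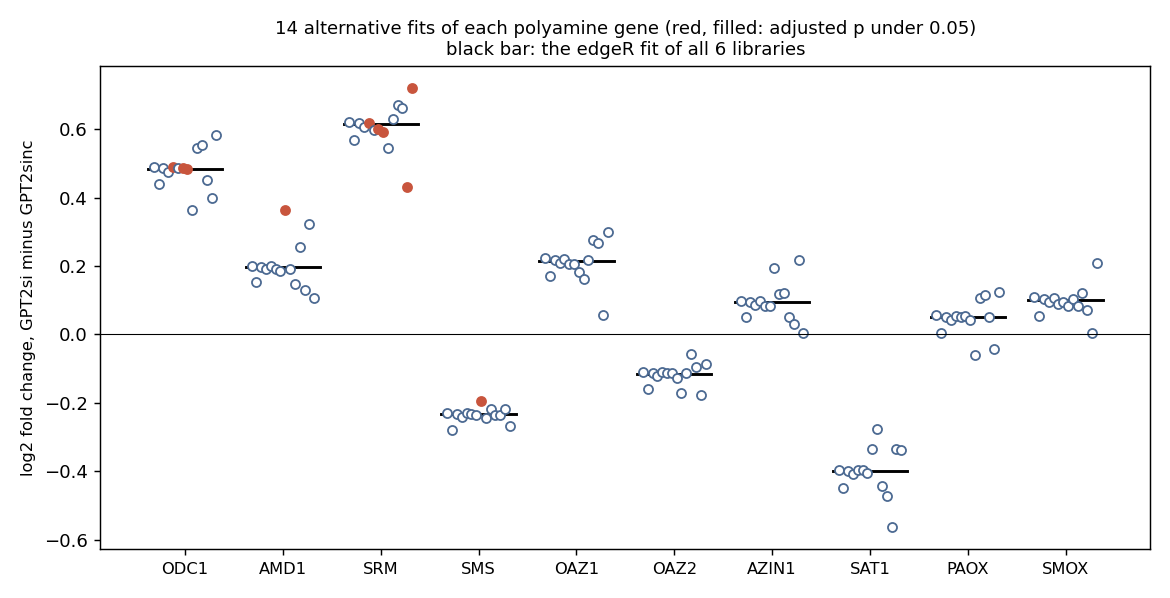
Log2 fold change (GPT2si minus GPT2sinc, vertical axis) of each polyamine gene under 14 alternative fits (points; filled red where the adjusted p was under 0.05) beside the edgeR fit of all 6 libraries (black bar). SRM ranges from 0.43 to 0.72 and ODC1 from 0.36 to 0.58, all above 0, while PAOX is the one gene with points on both sides of 0.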

How the data were processed

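The deposited values are raw integer counts for Ensembl gene rows, in 6 library columns per the file header, and 0 columns were left unmapped. Per the labels' protocols, poly(A) RNA was selected and strand was marked with dUTP. Per the submitters' processing notes, CASAVA and StringTie were among the tools. Not given in the sources used here: aligner, counting program, strand setting, handling of reads with several matches, genome build and annotation. Symbols were found for 60295 of 60564 rows, and 58457 occur in GENCODE 29.

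Groups were compared with edgeR 4.0.16 (glmQLFit and glmQLFTest, R 4.3.3) with TMM factors, filterByExpr and group as the only term, adjusted over all genes kept. SE was derived from the F statistic. Tested on simulated data, the fit recovered the larger changes, missed many of the smallest ones, and made more false calls than its threshold implies. Alternatives were other scaling factors and filters, DESeq2 1.42.0, limma-voom (limma 3.58.1), a replicate block, each library left out, and GC and length offsets (loess, span 0.5, covering 98.9% of tested genes). The members, the wider list, the named genes (all members, GPT2, listed genes past the test and 7 fixed ones) and the alternatives were chosen with earlier results of these data known; ADI1, MAX, SLC7A1, ALDH18A1, ARG2, OAT, GPC1, DOHH, SAT2, AZIN2 and SATL1 were named after their values were seen. P-values measure the spread between libraries, which may be technical. Floors of 3 counts cover counting error only: PCR copies were not marked by molecular identifiers. No pair of libraries agreed within sampling noise (chi-square per gene at least 7.71).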

Additional observations from a re-analysis of the deposited data

How the results depend on the processing

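The counts of genes past the test (98 higher, 143 lower; 40.7% of calls higher) depended strongly on the fit. They were 17 and 27 with no low-count filter, 596 and 460 with the DESeq2 Wald test (56.4% higher), 1474 and 802 with GC and length offsets (64.8% higher), and 61 higher with DESeq2 size factors. With each library left out in turn, 0 to 377 were higher and 1 to 459 lower; the extremes came without GPT2sinc 2 (0 and 1) and without GPT2si 2 (377 and 459). Of the members, 0 were higher and 0 lower with other scaling factors, other filters and limma-voom. DESeq2 called 2 higher (ODC1 and SRM), and GC and length offsets called 3 higher and 1 lower. Leaving out 1 library gave 0 to 1 higher (SRM, without GPT2si 2 or GPT2si 3) and 0 lower. PAOX changed sign without GPT2sinc 1 and without GPT2si 2 (-0.061 and -0.042; -0.061 to 0.12 over all left-out libraries). ATP13A3 changed sign with GC and length offsets (0.16) and without GPT2sinc 1 and GPT2si 2 (0.14 and 0.16; -0.28 to 0.16 over all left-out libraries). The other 9 members kept their sign in all 14 alternatives. Same-numbered libraries deviated together by r = 0.09, 0.11 and −0.19 over genes, so the numbers were not taken to pair the libraries, and not every library correlated best with its own number. With the replicate block 252 genes were higher and 306 lower, and 2 members were higher (ODC1 and SRM, edgeR adjusted p = 0.0392 and 0.0123). The lowest count of a member was 123 (SAT1 in GPT2si 2), and whether depth limited the calls was not tested. The causes of these changes were not tested.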
